A study of Mus musculus with 12 samples.

Results

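The genes described here are 9 transcriptional regulators of blood stem and progenitor cells: Myb, Myc, Runx1, Meis1, Hhex, Hoxa9, Sox4, Mecom and Bmi1. They were chosen by symbol, as every probe set whose platform annotation gives that gene alone, which gave 29 of the 34945 probe sets with a single symbol among 45101 on the array. Of these, 21 probe sets from 7 genes were brighter than the median of the array on 3 or more of 12 arrays and were tested, and 8 probe sets did not, among them every probe set of Hoxa9 and Mecom. Each of the 21 did so on all 12 arrays. The series measured RNA in G1ME, a mouse line of bipotent megakaryocyte and erythroid progenitors described by the labels as negative for Gata1, after retroviral transduction. The groups were GATA1-labelled cells at 18 h, vector-labelled cells at 18 h, GATA1-labelled cells at 42 h and vector-labelled cells at 42 h, each with 3 arrays that carry the letters A, B and C and are described as biological triplicates. The vector was MIGR1 with green fluorescent protein (GFP), and in both arms the GFP-positive cells were sorted before RNA extraction, so all 4 groups share the Gata1-negative background, the transduction and the sort. All arrays come from this 1 cell line, and the labels name no second clone. The comparisons ask how these regulators behaved once GATA1 was supplied to progenitors that lack it.

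Stem and progenitor cells of the blood keep a set of transcription factors active that maintain self-renewal or hold back maturation, and many of them decline as a lineage matures. MYB, RUNX1, MEIS1 with its HOX partners, HHEX, SOX4 and the MECOM product EVI1 bind DNA in a sequence-specific manner, MYC with its partner MAX drives genes of growth, and BMI1 is a subunit of Polycomb repressive complex 1 (PRC1), which silences genes through chromatin. GATA1 is the zinc finger factor that both red cells and megakaryocytes require to mature.

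The labelled cell type was set against its markers. Of 6 stem and progenitor markers with a single-symbol probe set, Cd34, Flt3 and Procr were under an intensity of 20 on every array, while Kit, Gata2 and Slamf1 were measured. All 8 fibroblast markers, 9 of 10 lymphoid, 7 of 10 myeloid and 7 of 9 mast cell markers were also under 20 on every array. Array medians lay between 8.05 and 8.29, and 29.2% to 29.7% of probe sets per array exceeded 100. Replicate A of the GATA1-labelled cells at 42 h stood apart in its control probe sets, with a log2 ratio of 3′ to 5′ beta-actin signal of 0.80 against 0.38 to 0.55 on the other 11 arrays, so the 42 h results of the regulators that passed, and the tests over time, are also given without it. The Gata1 probe set averaged 2044 ± 355 in GATA1-labelled cells and 3137 ± 116 in vector-labelled cells at 42 h (SD, n = 3), which runs against the labels. No source used here says whether it lies in the deleted part or in the construct, so it is no check on them.

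At 42 h, 3 of the 7 tested regulators were lower in GATA1-labelled than in vector-labelled cells: Hhex, Meis1 and Myb. No tested regulator was higher. Of all 10759 genes tested, 20.9% passed in either direction and 10.6% were lower. Values are deposited linear intensities, and differences are of mean log2(intensity + 16), GATA1-labelled minus vector-labelled, with the standard error (SE) of limma's fit over all 12 arrays and p-values adjusted by Benjamini-Hochberg over all genes tested, with a threshold of 0.05. The pseudocount makes the differences of dim probe sets smaller. In bulk RNA, fewer cells with a transcript and less transcript per cell cannot be told apart.

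Meis1 encodes a TALE homeodomain factor that binds DNA together with HOX and PBX proteins and is required in blood stem cells. Its brightest probe set read 1567, 1306 and 1214 on the GATA1-labelled arrays A, B and C at 42 h, against 3294, 3094 and 2917 on the vector-labelled ones. Every GATA1-labelled array lay below every vector-labelled array, and the lowest vector-labelled array was well above the highest GATA1-labelled one. The means were 1362 ± 183 in GATA1-labelled and 3102 ± 189 in vector-labelled cells (SD, n = 3 each), a difference of -1.18 ± 0.10 (limma adjusted p = 4.12e-05), or 2.27-fold lower. Without the GATA1-labelled replicate A the difference was -1.29 (adjusted p = 3.80e-05).

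Hhex encodes a homeodomain repressor active in early blood progenitors. Its only probe set read 454, 356 and 327 in GATA1-labelled cells at 42 h, against 1340.4, 1166 and 941 in vector-labelled cells. The groups did not overlap, and replicate A was the highest array in each of them. The means were 379 ± 66.2 in GATA1-labelled and 1149 ± 200.4 in vector-labelled cells (SD, n = 3 each), a difference of -1.56 ± 0.18 (limma adjusted p = 2.26e-04), or 2.95-fold lower, and -1.69 (adjusted p = 3.93e-04) without the GATA1-labelled replicate A. A difference below -1 with an adjusted p under the threshold was reached by 2.63% of all genes tested, and among these regulators by Hhex and Meis1. Ordered from the most negative difference at 42 h, Hhex was number 110 and Meis1 number 197 of the 10759 genes.

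Myb encodes a factor that keeps progenitors cycling and immature, and mice with lowered MYB activity are known for excess megakaryocytes. Its brightest probe set read 3039.8, 3531 and 3532 in GATA1-labelled cells at 42 h, against 4470.0, 4592 and 4306 in vector-labelled cells. The groups did not overlap, but the gap was smaller than for Meis1 or Hhex relative to the level. The means were 3368 ± 284 in GATA1-labelled and 4456 ± 143 in vector-labelled cells (SD, n = 3 each), a difference of -0.41 ± 0.08 (limma adjusted p = 0.00774), or 1.32-fold lower. Replicate A was the lowest GATA1-labelled array, and without it the difference was -0.33 (adjusted p = 0.0245).

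**Figure D1:**
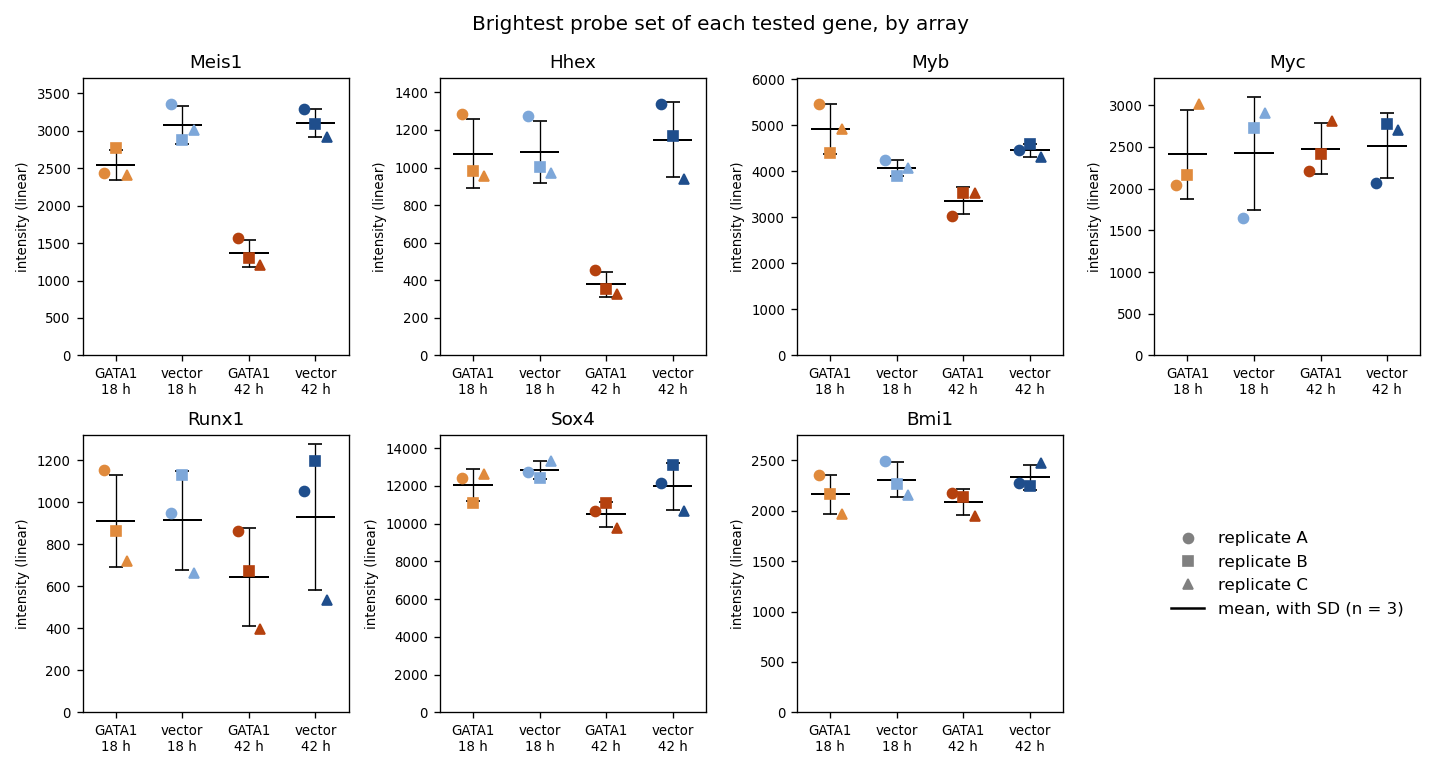
Intensity (linear, y axis from 0) of the brightest probe set of each of the 7 tested regulators on all 12 arrays, grouped by construct and time, with horizontal bars for means and whiskers for SD (n = 3). The GATA1-labelled arrays at 42 h lie below all vector-labelled arrays at 42 h for Meis1, Hhex, Myb and Bmi1, and overlap them for Myc, Runx1 and Sox4.

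The promoters of the 3 regulators that fell are shown so that their sequence can be read beside these values. They are the 250 bases before the annotated start, from RefSeq on GRCm38.p6, 5′ to 3′ on the gene's strand. Capitals mark matches to CCAAT, the box bound by NF-Y, and to GGGCGG, the GC box bound by SP1, on either strand, and overlapping matches run together.
Meis1, chr11:19018970-19019219, minus strand: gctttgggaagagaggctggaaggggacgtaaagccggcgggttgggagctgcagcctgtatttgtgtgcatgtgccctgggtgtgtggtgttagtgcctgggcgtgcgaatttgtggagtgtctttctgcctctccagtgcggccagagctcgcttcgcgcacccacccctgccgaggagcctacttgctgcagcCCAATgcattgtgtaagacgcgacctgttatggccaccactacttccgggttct
Hhex, chr19:37434591-37434840, plus strand: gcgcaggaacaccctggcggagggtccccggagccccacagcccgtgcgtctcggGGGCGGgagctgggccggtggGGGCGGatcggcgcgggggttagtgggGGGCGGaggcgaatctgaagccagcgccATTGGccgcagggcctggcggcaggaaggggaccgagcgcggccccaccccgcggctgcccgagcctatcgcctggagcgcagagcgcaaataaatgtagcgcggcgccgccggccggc
Myb, chr10:21160985-21161234, minus strand: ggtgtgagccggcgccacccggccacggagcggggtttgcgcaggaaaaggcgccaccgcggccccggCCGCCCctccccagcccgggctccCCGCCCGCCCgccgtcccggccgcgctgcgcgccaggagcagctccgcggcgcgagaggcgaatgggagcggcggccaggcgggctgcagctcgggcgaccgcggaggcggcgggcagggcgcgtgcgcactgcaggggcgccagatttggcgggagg
The Meis1 window held 1 CCAAT match and no GC box, the Hhex window 1 CCAAT match and 3 GC boxes, and the Myb window 3 GC boxes and no CCAAT match. Among all 32851 RefSeq promoters of this length, 33.8% held CCAAT and 32.7% held GGGCGG. GC content was 59.6% in the Meis1 window, 76.0% in the Hhex window and 81.2% in the Myb window, against a median of 52.4%. None of these 3 windows held a GATA motif, searched on both strands as the words AGATAA or AGATAG or TGATAA or TGATAG, which 26.5% of all promoters did, nor the E-box CACGTG of MYC and MAX, which 6.02% did. No match says only that these letters are not in these 250 bases.

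The motif matches in the promoters of the other regulators are shown as 26 bases, with the match in capitals, because they are the windows that hold a GATA motif or the E-box. The first start listed was used for each of the 8 regulators, of 9, that were matched. A match is a string of letters, and binding was not measured here.
Runx1, chr16:92826130-92826155, minus strand: tcacttaagtCACGTGattggcaaga
Hoxa9, chr6:52227372-52227397, minus strand: aaaagtggggTGATAGaggaatagga
Mecom, chr3:30509775-30509800, minus strand: caaatcaaagTGATAAatcgctccaa
Bmi1, chr2:18676793-18676818, plus strand: atgaggggagCACGTGacccggcggg
The E-box matches lay in the Runx1 and Bmi1 windows, and the GATA matches in the Hoxa9 and Mecom windows. Over all promoters, 6.02% held the E-box and 26.5% a GATA motif. The Sox4 window held neither motif. Hoxa9 and Mecom were the regulators at the bottom of the intensity scale on every array, vector-labelled arrays included. A link between motif and level was not tested.

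The other 4 tested regulators did not pass at 42 h. Runx1, which encodes the DNA-binding subunit of core binding factor and is needed for the first blood stem cells, read 862, 673 and 397 in GATA1-labelled cells, against 1052, 1198 and 537 in vector-labelled cells. Replicate C was the lowest array in both groups, and the groups overlapped. The means were 644 ± 234 in GATA1-labelled and 929 ± 347 in vector-labelled cells (SD, n = 3 each), a difference of -0.51 ± 0.37 with a 95% interval of -1.33 to 0.32 (limma adjusted p = 0.409). Within each letter the GATA1-labelled array was the lower one, and with the replicate letter as a block the interval was -0.90 to -0.11, which still did not pass (adjusted p = 0.0615). Leaving out the vector-labelled replicate C at 42 h moved the difference to -0.85 (adjusted p = 0.124) and leaving out the GATA1-labelled replicate C to -0.20 (adjusted p = 0.816), and the other settings lay between -0.75 and -0.14.

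Sox4, an HMG-box factor required for early B cell development, read 10653, 11078 and 9758 in GATA1-labelled cells, against 12134, 13126 and 10678 in vector-labelled cells. The GATA1-labelled array B lay above the vector-labelled array C, so the groups overlapped. The means were 10496 ± 674 in GATA1-labelled and 11979.5 ± 1232 in vector-labelled cells (SD, n = 3 each), with a difference of -0.19 ± 0.08 (limma adjusted p = 0.159). Without the vector-labelled replicate C the difference was -0.27 and passed (adjusted p = 0.0422).

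Bmi1 read 2176, 2140.1 and 1943 in GATA1-labelled cells at 42 h, against 2273, 2248 and 2476 in vector-labelled cells. The groups did not overlap, yet the difference of -0.16 ± 0.08 did not pass (limma adjusted p = 0.213). With Bmi1, 4 of the 7 regulators had groups that did not overlap at 42 h, where 33.4% of all genes tested did.

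Myc read 2215, 2413 and 2810.2 in GATA1-labelled cells, against 2068, 2777 and 2706 in vector-labelled cells. These arrays were fully interleaved. The means were 2479 ± 303 in GATA1-labelled and 2517 ± 390.5 in vector-labelled cells (SD, n = 3 each), and the difference of -0.02 had a 95% interval of -0.54 to 0.50 (limma adjusted p = 0.995), an interval that spans changes in both directions. The median difference of the 7 regulators at 42 h was -0.41, beside 0.00 over all genes tested.

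Hoxa9 and Mecom were not measured above the bulk of the probe sets in any group. Hoxa9, a homeobox gene that cooperates with Meis1 in leukaemia, read between 3.55 and 6.74 over its 2 probe sets and 12 arrays. Mecom, whose product EVI1 sustains blood stem cells, read between 4.10 and 7.25 over its 3 probe sets. All these values lie below the lowest array median of 8.05, so no comparison between groups was made for either gene. The remaining probe sets below the filter were 1 for Runx1, at 4.76 to 8.91, and 2 for Sox4, at 2.69 to 2.82.

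Several regulators were read by more than 1 probe set, and the readings were compared by difference only, since levels of different probe sets are not on a common scale. When each probe set was tested for itself, 3 of 21 passed at 42 h, the brightest ones of Myb, Meis1 and Hhex, where 15.8% of all 19636 probe sets did. All 21 had a mean difference below 0, whereas 50.1% of all probe sets did. Probe sets of a gene read the same RNA, and the arrays are shared, so these 21 signs are not independent. The median difference was -0.34 over the 21 probe sets and 0.00 over all probe sets.

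For Myb, the second probe set gave -0.33 ± 0.13 (limma adjusted p = 0.118) and the third -0.37 ± 0.23 (adjusted p = 0.364). These are close in size to the brightest probe set's value, with larger errors. For Meis1, the second probe set was dim and scattered, with 38.7, 41.3 and 14.9 in GATA1-labelled cells against 253, 69.1 and 25.5 in vector-labelled cells at 42 h. Its difference of -1.10 ± 0.63 did not pass (adjusted p = 0.316), and the third Meis1 probe set stayed between 8.71 and 15.7 over the 12 arrays, near the array medians.

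For Sox4, probe sets 2 and 3 in brightness gave -0.48 ± 0.16 (limma adjusted p = 0.0873) and -0.49 ± 0.18 (adjusted p = 0.10), further from 0 than the brightest. The fourth Sox4 probe set read 196 on the GATA1-labelled replicate A at 42 h, against 838 and 797 on replicates B and C and 988 to 1239.9 in vector-labelled cells. Its difference was -1.06 ± 0.48 (adjusted p = 0.193) over all arrays and -0.40 (adjusted p = 0.38) without that array. Without the GATA1-labelled replicate A, 5 member probe sets passed at 42 h, the added ones being the second Sox4 probe set at -0.63 (adjusted p = 0.0275) and the third Runx1 probe set at -0.67 (adjusted p = 0.0424). The 5 tested Runx1 probe sets lay between -0.51 and -0.14 and the Bmi1 pair at -0.16 and -0.25, with none past the threshold over all arrays.

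**Figure D2:**
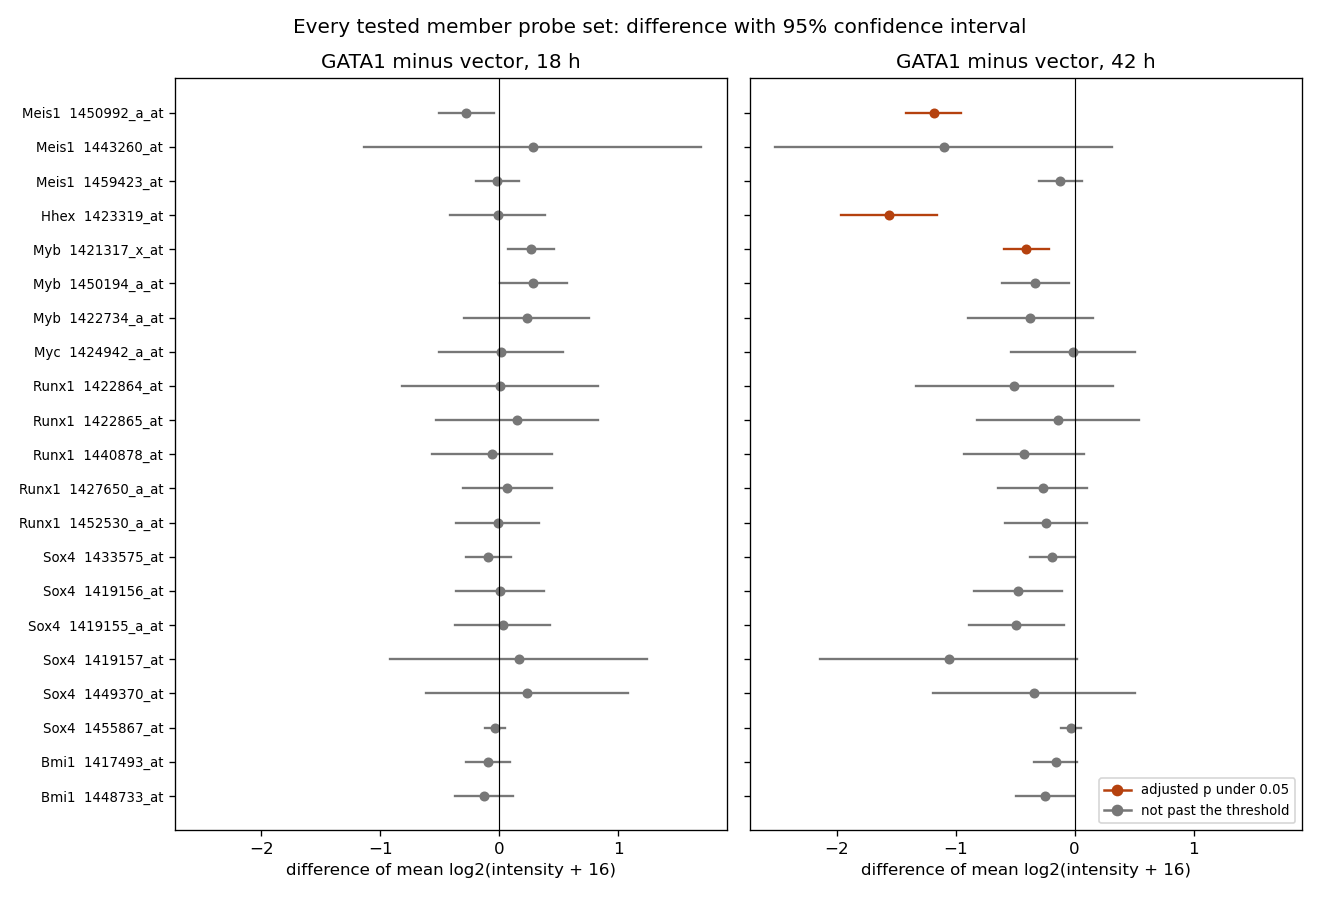
Difference of mean log2(intensity + 16), GATA1-labelled minus vector-labelled, for each of the 21 tested member probe sets at 18 h (left) and 42 h (right), with 95% confidence intervals. At 42 h all 21 points lie left of 0 and 3 pass the threshold (Meis1, Hhex, Myb), while at 18 h 9 lie left of 0 and none passes.

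At 18 h, 0 of the 7 regulators passed in limma, where 1.85% of all genes did, and 0 passed under each of the alternatives tried. An unadjusted p under 0.05 was reached by 2 of the 7 and by 9.82% of all genes. Myb read 5475, 4396 and 4912 in GATA1-labelled cells at 18 h, against 4241, 3906 and 4073 in vector-labelled cells. These arrays did not overlap and were higher with GATA1, opposite in sign to 42 h, but the difference of 0.27 ± 0.08 did not pass (adjusted p = 0.227). Meis1 read 2432, 2769.6 and 2413 in GATA1-labelled cells, against 3362, 2873 and 3003 in vector-labelled cells. The GATA1-labelled arrays were all lower, with a difference of -0.28 ± 0.10 that did not pass either (adjusted p = 0.343), and its second brightest probe set gave 0.28, of the opposite sign (adjusted p = 0.9997).

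The other 5 regulators differed by -0.09 to 0.01 at 18 h. Hhex was among them, with 1286, 979.5 and 958 in GATA1-labelled cells against 1274, 1003 and 973 in vector-labelled cells. Its arrays matched letter by letter within a narrow margin, and the difference was -0.01 with a 95% interval of -0.41 to 0.39. By probe set, 0 of 21 passed, where 1.12% of all probe sets did, and 9 of the 21 lay below 0, beside 56.1% of all. The median of the 7 regulators was -0.01, as over all genes. With the replicate letter as a block, 3.33% of all genes passed at 18 h and no regulator did.

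The change between the times was tested as an interaction, the GATA1 effect at 42 h minus that at 18 h. Hhex, Meis1 and Myb passed, 3 of 7, where 4.66% of all genes did. The interaction was -1.55 ± 0.25 for Hhex (limma adjusted p = 0.00865), -0.91 ± 0.14 for Meis1 (adjusted p = 0.00761) and -0.67 ± 0.12 for Myb (adjusted p = 0.0129). By probe set, the same 3 genes' brightest probe sets passed, where 2.98% of all probe sets did. For Myc, Runx1, Sox4 and Bmi1 the smallest adjusted p was 0.773, which does not show that their effects were alike at both times.

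Without the GATA1-labelled replicate A at 42 h the interaction was -1.68 for Hhex (adjusted p = 0.00941), -1.01 for Meis1 (adjusted p = 0.00347) and -0.60 for Myb (adjusted p = 0.0234). At 42 h the other 4 did not pass without it either, with -0.75 for Runx1, -0.20 for Sox4, -0.19 for Bmi1 and 0.06 for Myc.

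The times were also compared within each arm, over the same arrays. In GATA1-labelled cells, 42 h minus 18 h was -1.47 ± 0.18 for Hhex (limma adjusted p = 6.45e-04), -0.90 ± 0.10 for Meis1 (adjusted p = 4.34e-04) and -0.54 ± 0.08 for Myb (adjusted p = 0.0026). Without the GATA1-labelled replicate A at 42 h they were -1.60 for Hhex, -0.999 for Meis1 and -0.47 for Myb, all past the threshold. With the mean over a gene's probe sets the Meis1 value did not pass (-0.51, adjusted p = 0.231), and Runx1 did (-0.32, adjusted p = 0.0294). These were 3 of 7 regulators, where 14.6% of all genes passed. By probe set 4 of 21 passed, where 10.5% of all did, the fourth being the second Myb probe set (-0.47, adjusted p = 0.0435). In vector-labelled cells 0 of 7 regulators and 0 of 21 probe sets passed over time in limma. Of all genes 0.0186% passed, and of all probe sets 0.0102%. An unadjusted p under 0.05 was reached by 0 of the 7 and by 6.28% of all genes. Vector-labelled values for Meis1 were 3102 ± 189 at 42 h and 3079.7 ± 253 at 18 h, and those for Hhex were 1149 ± 200.4 at 42 h and 1083 ± 166 at 18 h (SD, n = 3).

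Meis1 and Hhex varied together, with Pearson r = 0.96 over the 12 arrays on the log2 scale. The 12 points are 4 groups of 3 that share arrays and a treatment, so this r restates the group difference at 42 h and is given as a description. Among the other 9 arrays, the GATA1-labelled ones at 18 h read lower for Meis1 than every vector-labelled array, while their Hhex values lay within the vector-labelled range. Genes with the most similar profiles were looked up in the same way for the 3 regulators that fell. Nearest to Meis1 were Plxdc2 (r = 0.99) and Perp (r = 0.99), nearest to Hhex were Iqgap2 (r = 0.98) and 5031439G07Rik (r = 0.98), and nearest to Myb were Rnase6 (r = 0.90) and Fam172a (r = 0.88). All 6 fell at 42 h in the GATA1-labelled cells, which follows from choosing them by likeness to regulators that fell on the same arrays. Perp, for instance, averaged 55.9 in GATA1-labelled and 625 in vector-labelled cells.

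**Figure D3:**
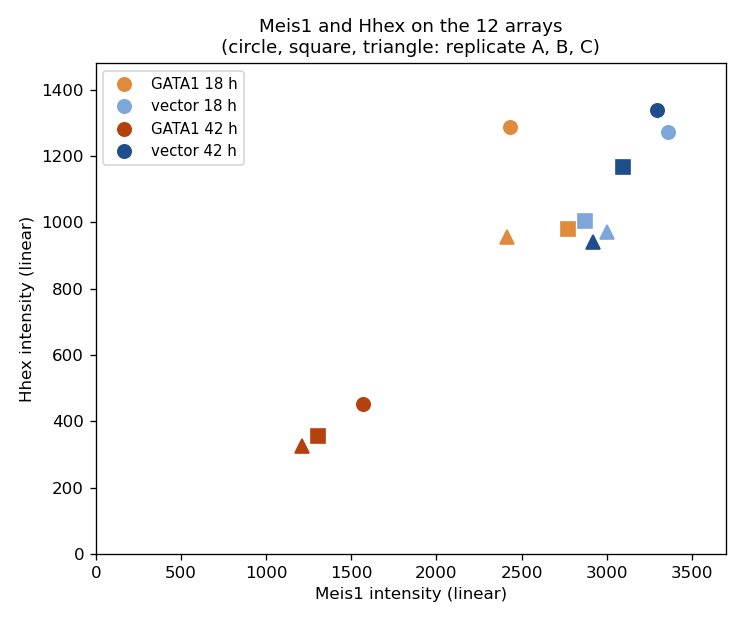
Intensity of Hhex (y axis) against Meis1 (x axis) on the 12 arrays, both linear and from 0, coloured by group, with circles, squares and triangles for replicates A, B and C. The 3 GATA1-labelled arrays at 42 h lie at the lower left, at up to 1567 for Meis1 and up to 454 for Hhex, apart from the other 9 arrays.

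Partners, paralogs and known targets of these regulators were taken from lists chosen by function, with the regulators themselves left out. At 18 h, 9 of the 11 lists had no gene past the threshold in limma, where 1.85% of all genes passed. The exceptions were the known targets, where Kit fell, and the other progenitor regulators, where Egr1 rose and Hmga2 fell. Every list count at 42 h below is to be read beside the 20.9% of all genes that passed in either direction and the 10.6% that were lower.

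Most HOX genes lay at the bottom of the scale. Of 22 HOX and TALE genes on the array, 14 did not pass the filter on low values, and 4 of 15 HOX genes did pass it. Only Hoxa5 among these 4 exceeded an intensity of 20 on any array, at 33.5 to 77.1. Of the 8 tested genes, 1 fell at 42 h, Pknox1, a TALE relative of MEIS1, with 276 ± 12.9 in GATA1-labelled and 351 ± 34.1 in vector-labelled cells (-0.33 ± 0.06, limma adjusted p = 0.00537). That call was lost when the fit held only the arrays compared (adjusted p = 0.0533).

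Among 7 tested RUNX family members and partners, 1 fell and none rose at 42 h, beside 20.9% of all genes in either direction. It was Cbfb, the subunit that RUNX proteins need for stable DNA binding, with 1279 ± 104 in GATA1-labelled cells and 3937 ± 31.6 in vector-labelled cells (SD, n = 3 each). The difference of -1.61 ± 0.07 (limma adjusted p = 4.58e-07), or 3.06-fold lower, held in all 23 alternatives tried, between -1.67 and -1.55. At 18 h Cbfb averaged 3295 ± 180 in GATA1-labelled and 3895 ± 240.3 in vector-labelled cells. That difference of -0.24 ± 0.07 did not pass (adjusted p = 0.165), but did with the replicate letter as a block (adjusted p = 0.0341).

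Of 13 tested genes of the MYC network, 2 rose and 2 fell at 42 h, a share of the list near the 20.9% of all genes that passed in either direction. Mxd4, which competes with MYC for MAX, averaged 43.3 ± 8.51 in GATA1-labelled and 219 ± 51.6 in vector-labelled cells (-1.97 ± 0.22, limma adjusted p = 2.24e-04), and Bin1, which binds MYC, averaged 1141 ± 148 in GATA1-labelled and 1808 ± 74.7 in vector-labelled cells (-0.66 ± 0.10, adjusted p = 0.00149). Mxd1, another competitor for MAX, rose by 0.60 (adjusted p = 0.0133), and Mlx, a MAX-like partner, by 0.47 (adjusted p = 0.0324). Over the alternatives Mxd4 lay between -2.30 and -0.88 and Bin1 between -0.74 and -0.22, with every call kept. The calls of Mxd1 and Mlx were lost in 3 of 23 and in 6 of 24 alternatives.

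Of 22 MYC target genes of growth, 1 rose and 2 fell at 42 h, beside 20.9% of all genes in either direction. The other 19 did not pass, and the list median was 0.06. Odc1, the first enzyme of polyamine synthesis, rose by 0.47 ± 0.05 (limma adjusted p = 1.57e-04), with 19775 ± 822 in GATA1-labelled and 14268 ± 885 in vector-labelled cells. Shmt1, of one-carbon metabolism, fell by 0.54 (adjusted p = 0.0073), a call lost with the second brightest probe set (adjusted p = 0.0705), and Cdk4, a cell cycle kinase, fell by 0.19 (adjusted p = 0.0122), a call lost in 4 of 24 alternatives.

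For MYB, 1 of 6 tested paralogs and coactivators rose at 42 h, Mybl2, a cell cycle relative of MYB, by 0.70 ± 0.21 (limma adjusted p = 0.0406). That call was lost in 12 of 24 alternatives. Among 5 tested MECOM relatives and corepressors, Hdac1 rose by 0.21 (adjusted p = 0.024), a call lost in 8 of 23 alternatives. Of 4 tested SOX genes, Sox6, a factor of red cell maturation, fell, with 354 ± 81.8 in GATA1-labelled and 1125 ± 247 in vector-labelled cells (-1.63 ± 0.18, adjusted p = 1.94e-04).

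Of 16 tested PRC1 subunits, the complex to which BMI1 belongs, 4 rose at 42 h and none fell, a share near the 20.9% of all genes that passed in either direction. Kdm2b, which brings a variant PRC1 to CpG islands, rose by 0.83 ± 0.09 (limma adjusted p = 1.72e-04), with 4742 ± 454 in GATA1-labelled and 2665 ± 212 in vector-labelled cells. Cbx6, a chromodomain subunit, rose by 0.61 (adjusted p = 0.0492), a call lost in 13 of 24 alternatives, and the other two, named after their values were seen, were Pcgf5 (0.47, adjusted p = 0.0301) and Ring1 (0.39, adjusted p = 0.0253). The loci that BMI1 is known to repress gave 2 tested genes, and neither passed. Both were dim, Cdkn2a at 29.4 to 52.0 and Cdkn2b at 8.76 to 11.6 over the 12 arrays. There the pseudocount makes differences smaller.

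The known blood targets of RUNX1, MYB, HOXA9 and MEIS1 gave 2 up and 5 down of 11 tested at 42 h, beside 20.9% of all genes in either direction, and 1 up and 5 down of 10 without Alox12, whose direction the filter fixed. Kit, the stem cell factor receptor, averaged 42.9 ± 2.18 in GATA1-labelled and 631 ± 173 in vector-labelled cells at 42 h (-3.42 ± 0.21, limma adjusted p = 4.72e-06). At 18 h its brightest probe set was already lower (-1.67 ± 0.21, limma adjusted p = 0.00372). It averaged 98.5 ± 17.4 in GATA1-labelled and 349 ± 63.95 in vector-labelled cells. That call was lost in 2 of 24 alternatives, among them the second brightest probe set (adjusted p = 0.824). Mpo, a myeloid granule enzyme, read 8.66, 11.96 and 6.38 in GATA1-labelled cells at 42 h, against 92.1, 181 and 172 in vector-labelled cells, and fell (adjusted p = 0.0013). The GATA1-labelled arrays were near the array medians, so the size of the difference, -2.67 on this scale, ran from -3.88 to -1.51 over the alternatives.

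In the other direction, Alox12, the platelet lipoxygenase, read 59.9, 55.2 and 70.3 in GATA1-labelled cells at 42 h, against 6.22, 6.31 and 6.38 in vector-labelled cells. It exceeded the array median on these 3 GATA1-labelled arrays and, narrowly, on 2 others, so it passed the filter through the group where it was high and had to differ. Its difference ran from 0.84 to 3.10 over the alternatives, with vector-labelled cells at the bottom of the scale. Pf4, a platelet chemokine, rose by 1.12 ± 0.16 (adjusted p = 0.00106). Kit, Mpo and Pf4 also belong to the cell type markers.

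Other regulators of stem and progenitor cells gave 2 up and 3 down of 11 tested at 42 h, beside 20.9% of all genes in either direction. Bcl11a, a repressor of globin genes, averaged 579.8 ± 68.4 in GATA1-labelled and 64.9 ± 29.2 in vector-labelled cells (2.93 ± 0.24, limma adjusted p = 2.85e-05). Mllt3, a subunit of the super elongation complex, rose by 1.74 ± 0.25 (adjusted p = 0.00104). At 18 h Bcl11a differed by 0.73, which did not pass (adjusted p = 0.255), and did with the replicate letter as a block (adjusted p = 0.0299). Hmga2, a chromatin protein of fetal stem cells, read 8.93, 12.7 and 14.2 in GATA1-labelled cells at 42 h, against 189, 140.0 and 143 in vector-labelled cells. It fell (adjusted p = 1.37e-06), by a size that ran from -3.62 to -1.54 over the alternatives since the GATA1-labelled arrays were near the array medians, and at 18 h the difference was -1.10 (adjusted p = 0.00348). Msi2, an RNA-binding protein of stem cells, fell by 1.06 ± 0.09 at 42 h (adjusted p = 2.91e-05). Egr1, an immediate early factor, averaged 1669 ± 143 in GATA1-labelled and 727 ± 122 in vector-labelled cells at 18 h (1.19 ± 0.17, adjusted p = 0.00672), and 642 ± 116 in GATA1-labelled and 628 ± 94.4 in vector-labelled cells at 42 h. The Msi2 call was lost with the second brightest probe set (adjusted p = 0.274), and the Egr1 call at 18 h without the 4 arrays lettered A (adjusted p = 0.156).

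**Figure D4:**
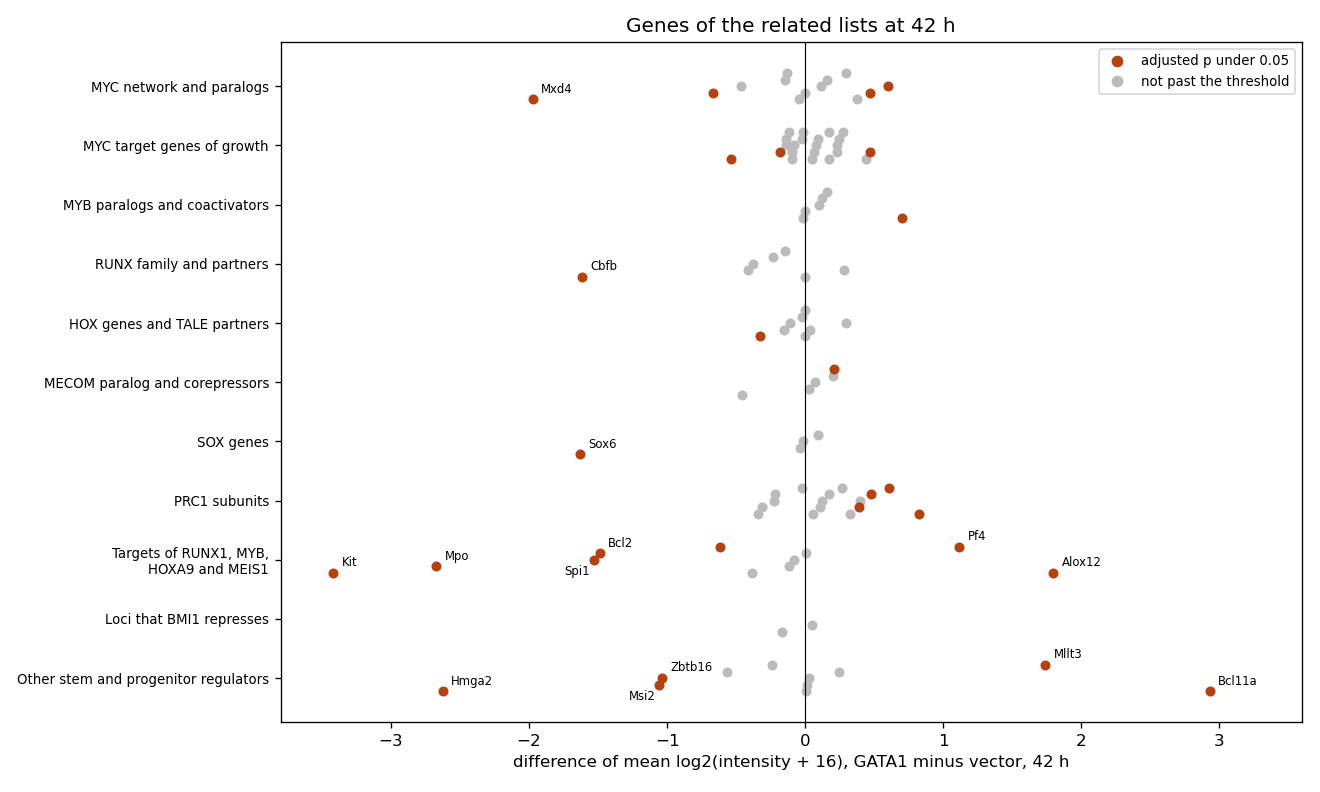
Difference of mean log2(intensity + 16), GATA1-labelled minus vector-labelled, at 42 h (x axis) for every tested gene of the 11 lists (rows), with genes past the threshold in the darker colour and those beyond 1 in size named. Most MYC targets lie near 0, as do the HOX genes, most of them dim, where the pseudocount makes differences smaller. Cbfb, Mxd4, Sox6, Kit, Mpo and Hmga2 are among the genes below -1. Above 1 lie Bcl11a, Mllt3, Pf4 and Alox12, the last with a direction fixed by the filter.

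Markers of maturation moved with these changes at 42 h. Of 8 tested erythroid markers 7 rose and 1 fell, and of 8 tested megakaryocyte markers 5 rose and 1 fell, beside 20.9% of all genes in either direction. Of these, Alas2 and Ermap exceeded the array median on the 3 GATA1-labelled arrays at 42 h alone, so the filter fixed their direction, and 5 rose and 1 fell of the 6 other erythroid markers. Car1 and Vwf exceeded it on the 6 GATA1-labelled arrays alone, so they too passed the filter only through groups where they were high. Both are still in the erythroid and megakaryocyte counts given here, so their rise adds no support. Klf1, an erythroid transcription factor, averaged 4231 ± 271 in GATA1-labelled and 242 ± 43.0 in vector-labelled cells (4.05 ± 0.19, limma adjusted p = 1.02e-06). The erythroid marker that fell, named after its values were seen, was Car2, a carbonic anhydrase, with 18683 ± 1351 in GATA1-labelled and 25450.0 ± 1232 in vector-labelled cells (-0.45 ± 0.07, adjusted p = 0.00119). The summed intensity of the 8 megakaryocyte markers was 28995 to 35262 in GATA1-labelled and 16499 to 17124 in vector-labelled cells, while that of the 9 erythroid markers overlapped, at 24532 to 27696 in GATA1-labelled and 24669.6 to 26974 in vector-labelled cells, with Hba-a1 under 20 on every array. Such sums add probe sets that share no common scale, and Car2 made up most of the erythroid sum. The summed mast cell markers ran from 106 to 134 in GATA1-labelled and from 1660.1 to 2693 in vector-labelled cells, mostly through Cpa3. Gata2, a progenitor factor, averaged 623 ± 176 in GATA1-labelled and 3208 ± 679 in vector-labelled cells (-2.36 ± 0.31, limma adjusted p = 5.41e-04). Of the 3 tested stem and progenitor markers, Gata2 and Kit fell, and Slamf1, a surface receptor of blood stem cells, rose, with 1537 ± 222 in GATA1-labelled and 295 ± 50.2 in vector-labelled cells at 42 h (2.32 ± 0.19, adjusted p = 3.22e-05) and 1185 ± 140.3 in GATA1-labelled and 372 ± 104 in vector-labelled cells at 18 h (1.65 ± 0.19, adjusted p = 0.00312). Slamf1, Klf1, Car1, Vwf, Alas2 and Ermap were likewise named after their values were seen. The part of such shifts in cell makeup in the differences of Hhex, Meis1 and Myb was not tested.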

How the data were processed

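RNA of 12 arrays in 4 groups was analysed. The deposited values are linear intensity values per probe set and array, made by the authors. GCRMA and MAS5 are named, with no version, per the submitters' processing notes, and no source used here says which of them made the intensity values. No further normalization was applied.

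Probe sets were named through the platform annotation: 34945 had 1 gene symbol, 932 several and 9160 none, and 34741 of the first matched RefSeq genes of GRCm38.p6. The brightest probe set (mean over 12 arrays) stood for a gene, and 10759 of 18193 genes passed the filter on low values. Differences of log2(intensity + 16) were estimated by lmFit and eBayes of limma 3.58.1 (R 4.3.3) over 4 groups, two-sided, with Benjamini-Hochberg adjustment over all genes tested and a threshold of 0.05. The fit was tested on simulated data with independent noise on each array, which leaves out the likeness of same-letter arrays and so cannot speak to it. The 5 comparisons share arrays, and the number of arrays limits the precision. Probe sets were also tested one by one. Figures were drawn with matplotlib. For promoters, the first start listed for each gene was used, and 1 sequence item is not reported here.

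The members and gene lists were chosen with earlier results of these data known. The text names all members, and per list up to 2 genes past the threshold rising most and 2 falling most in each comparison of GATA1 with vector, the 2 genes most correlated with each member past the threshold at 42 h, and Gata1, Gata2 and Kit. Alternatives changed the pseudocount, the filter, the probe set, the normalization, the arrays in the fit, their weights and the replicate block, and left out each array in turn.

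The letters A, B and C were checked for pairing through deviations from the group means. Same-letter arrays correlated at -0.11 to 0.66 (median 0.41, 16 of 18 pairs over 0.1), and other-letter arrays at -0.63 to 0.39 (median -0.17, 5 of 36 pairs over 0.1). Within 18 h, within 42 h and within the vector over time every same-letter pair was over 0.1. The main fits hold no block, so their errors and p-values are unpaired, and the letter enters only in the replicate block setting. With that block at 42 h, limma adjusted p was 2.07e-06 for Hhex, 5.12e-05 for Meis1 and 0.0139 for Myb. For Sox4, Bmi1 and Myc it was 0.170, 0.144 and 0.982. The pairing comes from the data, since the labels do not say what the letters mark.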

Additional observations from a re-analysis of the deposited data

Results flagged for a closer look

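The effect of GATA1 differed between the times, by the interaction test, for 15 of the regulators, the list genes named by rule, and Gata1, Gata2 and Kit. Of all genes tested, 4.66% passed the interaction. The list genes were named for passing at 18 h or 42 h on these same arrays. The count of 15 can therefore not be set against that share. Genes named by correlation or after their values were seen are not in this count. Among the regulators the 42 h effect minus the 18 h effect was -1.55 for Hhex, -0.91 for Meis1 and -0.67 for Myb. Of these, only Myb had mean differences of opposite sign, above 0 at 18 h and below 0 at 42 h, and its 18 h difference did not pass. The interaction was also below 0 for Gata2 (-2.17), Kit (-1.75), Mxd4 (-1.57), Hmga2 (-1.52), Cbfb (-1.37), Sox6 (-1.23), Egr1 (-1.17), Msi2 (-0.92) and Bin1 (-0.62). It was above 0 for Bcl11a (2.20), Alox12 (1.77, a gene that passed the filter on low values through GATA1-labelled arrays at 42 h) and Odc1 (0.49). For Egr1 the value comes from a rise at 18 h that was no longer measured at 42 h. The Bin1 value did not pass with the replicate block (limma adjusted p = 0.0552).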

How the results depend on the processing

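Each result was recomputed under 12 other settings and with each of the 12 arrays left out. The 42 h call of Hhex held in all 23 settings that could give it, between -1.69 and -1.44, and that of Meis1 in 23 of 24. Only 1 probe set reads Hhex or Myc, so the setting with the second brightest probe set gave no value for them. With the second brightest probe set, 0 regulators passed at 42 h, 0 in the interaction and 0 in GATA1-labelled cells over time. At 42 h Myb was then -0.33 (adjusted p = 0.134) and Meis1 -1.10 (adjusted p = 0.334), read from its dim probe set. With the mean over the probe sets of a gene, 1 regulator passed in the interaction, without Meis1 (-0.80, adjusted p = 0.311) and Myb (-0.63, adjusted p = 0.125). At 42 h Myb was then -0.37 and no longer passed (adjusted p = 0.0907), while Runx1 at -0.28 (adjusted p = 0.0365) and Sox4 at -0.32 (adjusted p = 0.0319) did. Without the 4 arrays lettered A, the Myb interaction was -0.55 (adjusted p = 0.0661). Of 21 probe sets, 5 passed at 42 h with array weights, and 3 to 5 when 1 array was left out. For these counts no share of all probe sets is given, so they are not read as a result about the regulators. The causes of the changed calls were not tested. Among differences past the threshold in no setting compared, 42 values of the regulators changed sign. The count of all genes at 18 h was 199 and ran from 41 to 358, the highest with the replicate block. The replicate block gave 846 against 501 genes in the interaction and 41 against 2 in the vector over time. Beyond Cbfb and Bcl11a at 18 h and Bin1, it gained calls in the interaction for Pknox1 (-0.36), Mpo (-2.36) and Mllt3 (1.38) and over time for Mybl2 (0.52). It changed no other call among this same set of genes and none of a regulator. The low end of the scale, where Hoxa9, Mecom and most HOX genes lay, allowed no comparison.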
